A study of Danio rerio with 3 samples.

Results

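The genes described are those of vesicle trafficking and the lysosome in zebrafish (Danio rerio) larvae. They were chosen by gene symbol alone, with a pattern that takes in Rab, Arf, Arl and Sar1 GTPases, coat and adaptor proteins, tethers, sorting nexins and Vps proteins, cathepsins, V-ATPase subunits and lysosomal membrane proteins. The pattern found 188 of the 8793 genes that had a probe set with a single gene symbol. By their names and known roles, 141 of them are trafficking genes and 36 are lysosome genes. The other 11, such as the translocon subunits sec61a1a, sec61a1b and sec61g, match the pattern but act elsewhere.

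Whole larvae were profiled at 192 h post-fertilization (hpf) on an Affymetrix zebrafish array, with 1 array for each of 3 groups. The late-window group met the oil emulsion from 48 to 96 hpf and then spent 96 h in clean medium, and the early-window group met it from 0 to 48 hpf and then spent 144 h in clean medium. Both were kept as 30 embryos in 100 ml of medium in cups coated with 250 mg of emulsion from the Gulfport shoreline, which carried alkanes, polynuclear aromatic hydrocarbons, sand and seawater. Control larvae were kept without emulsion. The sources used here do not give the strain, the genotype or how many larvae were pooled for RNA. Each group has a single array, so no test was possible, every value describes these arrays and every difference lacks a replicate check.

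Eukaryotic cells move proteins and lipids in vesicles. Coats such as COPII, COPI and clathrin with its adaptors select the cargo and bend the membrane, Arf and Sar1 GTPases recruit the coats, and Rab GTPases with tethers bring the vesicle to its target membrane. Endosomes sort what they receive: retromer and sorting nexins return receptors, while the ESCRT, CORVET and HOPS complexes pass cargo on to the lysosome. There the V-ATPase pumps protons, cathepsins and other hydrolases digest the cargo, and membrane proteins such as Lamp1 and Npc1 protect the organelle and export cholesterol.

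Values are deposited log2 expression values, and differences are log2 differences between arrays. A difference is counted from 0.322 on the log2 scale in either direction. Genes whose highest value lay below 7.21, the median of all deposited values, were left out of counts and medians, which kept 5492 genes. Where a gene had several bright probe sets (718 genes), these scattered about their mean difference with an SD of 0.16 in the late window against control, 0.11 in the early window against control and 0.13 between the windows. Relative to control, 18 probe sets for hybridization spike-in controls (BioB, BioC, BioD and Cre) read 0.01 in the late window and -0.50 in the early window. Scaling on them would raise every early-window difference by 0.50. Whether that scale follows the amount of larval RNA was not tested. Directions below are therefore relative to the bulk of genes on each array, and those of the early window depend on that scale.

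Of the 188 genes, 147 passed the filter, made up of 106 trafficking genes, 32 lysosome genes and 9 genes of other functions. The median difference of these 147 genes from control was -0.01 in the late window and -0.01 in the early window, against -0.02 and -0.00 over all 5492 kept genes. The early-window median became 0.49 on the spike-in scale. The SD across the members was 0.18 and 0.16, and across all kept genes 0.23 and 0.17. Over all kept genes the differences from control ran from -1.63 to 4.68 in the late window, the top being cyp1a, the hydrocarbon-oxidising cytochrome, and from -1.16 to 1.99 in the early window. The members ran from -0.46 to 0.70 in the late window and from -0.59 to 0.71 in the early window, with arl3l1 lowest and ctss2.1 highest both times.

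In the late window 2 of the 147 members (1.36%) were higher than control by at least 0.322, against 4.90% of all kept genes. They were ctss2.1 and ctss2.2, a pair of cathepsin S genes. Another 7 members (4.76%) were lower by at least as much, against 5.61% of all kept genes, namely arl3l1, lamp1b, snx6, arl4cb, vps26bl, copb2 and golga7. The sorting nexin snx4 lay just inside the limit (-0.3215). In the early window 4 members (2.72%) were higher, against 2.02% of all kept genes, namely ctss2.1, snx5, npc1 and vps4b. The 5 members (3.40%) that were lower, against 3.55% of all kept genes, were arl3l1, lgmn, arl3l2, ctsl.1 and vps41, of which arl3l1 alone stayed below control on the spike-in scale. At 1.5-fold in either direction the late window left ctss2.1, against 1.78% of all kept genes, and the early window left ctss2.1 and arl3l1, against 1.00%. No kept member reached 2-fold from control. Both comparisons use the same control array, so a gene that read high or low there shifts in both.

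**Figure D1:**
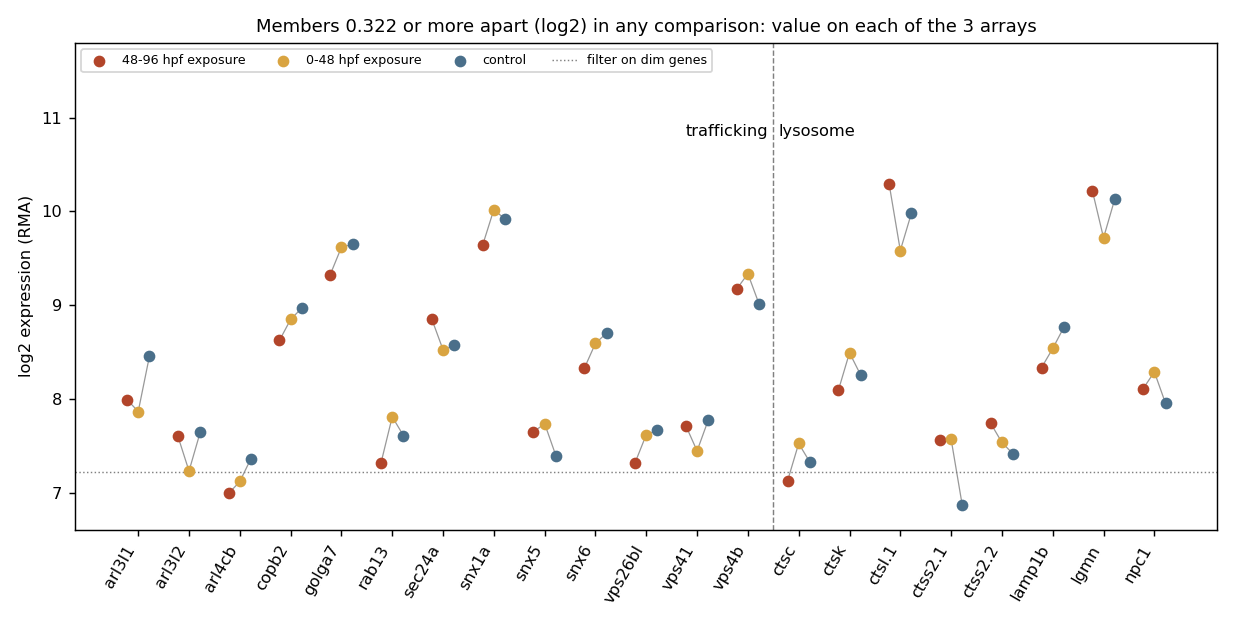
Deposited log2 expression (vertical axis) of the 21 members with a difference of at least 0.322 in any of the comparisons, with a point for each array: late window, early window and control, from left to right. The point of ctss2.1 on the control array lies below the filter (dotted), and arl3l1 is highest on the control array.

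The lysosome genes lay slightly above the trafficking genes in the late window. Their median was 0.05, against -0.02 for trafficking genes, a gap of 0.08. Above control were 19 of 32 lysosome genes and 49 of 106 trafficking genes, against 45.4% of all kept genes. In the early window the medians were -0.01 and -0.01, and both were 0.49 on the spike-in scale. Above control on the deposited scale were 15 of 32 lysosome genes and 48 of 106 trafficking genes, against 49.6% of all kept genes. The SD across lysosome genes was 0.21 in the late window and 0.22 in the early window, against 0.17 and 0.14 across trafficking genes. The lysosome SDs include ctss2.1, which was kept only through the exposed arrays and so had to differ from control. By role the SDs were 0.23 and 0.30 for cathepsins and legumain, 0.22 and 0.18 for membrane and lipid transport proteins, and 0.11 and 0.11 for V-ATPase subunits. Without the cathepsins and legumain the late-window lysosome median was -0.04, and without the V-ATPase subunits it was 0.16.

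**Figure D2:**
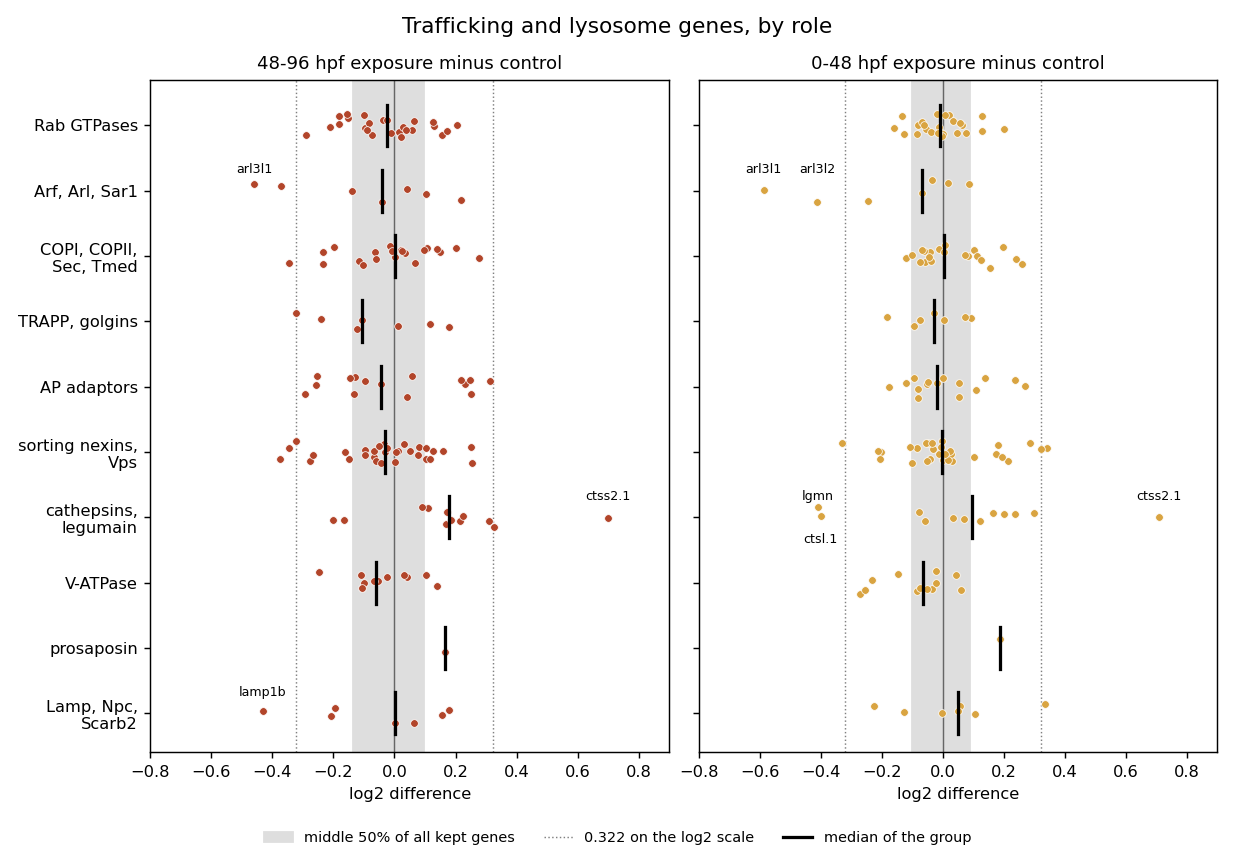
Log2 difference from control (horizontal axis) of each kept trafficking or lysosome gene, by role, for the late window (left) and the early window (right); bars mark group medians, the grey band the central quartiles of all 5492 kept genes and dotted lines a difference of 0.322. Most points lie within the dotted lines, the cathepsin medians are 0.18 and 0.10, and on the spike-in scale every early-window point would move up by 0.50, which puts the Arf and V-ATPase medians above control.

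Among the Rab GTPases, which mark membranes for docking and fusion, 25 of 39 passed the filter, and their medians were -0.02 in the late window and -0.01 in the early window. None was 0.322 or more away from control on either array. The brightest was rab2a, which acts between endoplasmic reticulum and Golgi, with values of 11.61 in the late window, 11.70 in the early window and 11.69 in control. The Rab furthest from control was rab13, known for traffic to tight junctions, at 7.32 in the late window, 7.81 in the early window and 7.61 in control. It was thus lower than control by 0.29 in the late window and higher by 0.20 in the early window, the widest gap between windows of any kept trafficking gene. Next came rab28, which is mutated in a human cone and rod dystrophy, at 8.25, 8.39 and 8.46 in the late window, the early window and control. For rab22a, a Rab of early and recycling endosomes, the late window read 7.89, the early window 7.65 and control 7.69.

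The Rabs of the main endosomal steps stayed near control. The 4 Rab5 genes of the early endosome had a late-window range of -0.16 (rab5b) to 0.06 (rab5c) and an early-window range of -0.13 to 0.06. A second bright probe set of rab5aa lay outside that late-window range, at -0.26, and read -0.08 in the early window. The late endosomal rab7a read 9.06 in the late window, 9.22 in the early window and 9.24 in control. Of the 3 kept Rab11 genes, which serve recycling endosomes, rab11ba differed by -0.15 and -0.16, rab11bb by -0.18 and -0.07, and rab11a by 0.02 and -0.08 in the late and early windows. For rab11bb a second bright probe set read -0.18 in the late window and 0.03 in the early window. The Rabs in this paragraph were picked for their place in the endosomal route after their values were seen.

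The Arf, Arl and Sar1 genes held the kept member furthest below control. The transcript of arl3l1, an Arl3-like GTPase, read 7.99 in the late window and 7.86 in the early window, against 8.45 in control. It was lower by 0.46 in the late window and by 0.59 in the early window, and on the spike-in scale it was the only kept member still below control in the early window (-0.09). In mammals Arl3 releases lipid-anchored proteins inside cilia, photoreceptor outer segments included. Its relative arl3l2 read 7.60 in the late window and 7.23 in the early window, against 7.64 in control. That is a difference of -0.04 in the late window and -0.41 in the early window, where the spike-in scale gave 0.09. A second, dim probe set of arl3l2 read -0.21 and -0.49.

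Most kept photoreceptor genes lay below control on the same arrays. A list of 32 photoreceptor genes was added after the values of arl3l1 were seen. Of its genes, 17 had a single symbol and 14 passed the filter. The gene pdca passed on the control array alone, so it had to lie below control in both windows. For rom1b only the early-window array lay below the filter, which fixed its early-window direction. In the late window 12 of the 14 were below control (median -0.29), as were 3000 of all 5492 kept genes. In the early window 14 of 14 were on the deposited scale (median -0.68), as were 2766 of all 5492. The spike-in scale would raise these early-window differences by 0.50. That would put gnb3b (-0.24), gngt2b (-0.40), pde6ha (-0.44) and prph2b (-0.46) above control and leave the others below. On the deposited scale the summed linear signal of the 14 genes was 30249 in the late window, 24136 in the early window and 35187 in control. The part of photoreceptors in the arl3l1 and arl3l2 values was not tested. In RNA from whole larvae, fewer cells of a type and less RNA per cell cannot be told apart.

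The brightest gene of this family, arf5, which recruits coats at the Golgi, read 10.95 in the late window, 11.00 in the early window and 10.91 in control. The dim arl4cb, an Arl4 GTPase of the plasma membrane, read 6.99 and 7.12 on the exposed arrays (late, then early), below the filter, and 7.36 on the control array. It was kept only through the control array, which fixed its direction. The medians of the 7 kept genes were -0.04 in the late window and -0.07 in the early window, where the spike-in scale gave 0.43.

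The coat proteins, their Sec partners and the p24 (Tmed) cargo receptors had medians of 0.00 in the late window and 0.00 in the early window over 21 kept genes. The brightest, copa, the alpha subunit of the COPI coat that returns cargo from Golgi to endoplasmic reticulum, read 10.90, 10.90 and 10.96 in the late window, the early window and control. A second COPI subunit, copb2, read 8.62 in the late window and 8.85 in the early window, against 8.97 in control, a late-window difference of -0.35. Its probe sets disagreed: another bright one read 0.02 in the late window, so the direction for copb2 is unsettled. The other 6 COPI genes lay between -0.11 and 0.03 in the late window.

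COPII genes, which form the coat that leaves the endoplasmic reticulum, spread to both sides. The cargo-binding subunit sec24a read 8.85 in the late window, against 8.52 in the early window and 8.57 in control, so that it was 0.28 above control in the late window and -0.05 in the early window. The GTPase sar1b, which starts the coat and is needed for the secretion of dietary fat in human intestine, differed by 0.22 and 0.02. In the other direction sec23a differed by -0.23 and -0.01 and sec24c by -0.20 and -0.10. The COPII-binding protein sec23ip read 7.34 in the late window, 7.46 in the early window and 7.20 in control, where it fell below the filter. The genes sar1b, sec23a and sec24c were named after their values were seen.

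Among Golgi tethers and golgins, 7 of 11 passed the filter, with medians of -0.11 in the late window and -0.03 in the early window. Without the filter the late-window median was 0.01. The partner of a palmitoyl transferase, golga7, read 9.33 in the late window, against 9.62 in the early window and 9.65 in control. The giant golgin golgb1, which tethers COPI vesicles, read 8.38, 8.27 and 8.20 in the same order. The TRAPP subunit trappc5 read 8.92 and 8.97 in the late and early windows, against 9.16 in control. Of the 4 kept TRAPP genes, 3 lay below control in both windows, the early-window ones only on the deposited scale. Of all 5492 kept genes, 3000 lay below control in the late window and 2766 in the early window.

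The AP adaptor genes had medians of -0.04 in the late window and -0.02 in the early window (15 of 18 kept). The brightest, ap2m1a, the medium subunit of the AP-2 adaptor of endocytosis, read 12.11, 12.11 and 12.05 in the late window, the early window and control. Subunits of AP-1, the adaptor of the trans-Golgi network and endosomes, went both ways. The large subunit ap1b1 read 7.57 in the late window and 7.74 in the early window, against 7.86 in control, while ap1m2, the medium subunit of epithelia, read 7.42 and 7.34, against 7.10 in control. The small subunit ap1s3b read 7.78 and 7.80, against 7.53 in control. The control reading of ap1m2 lay below the filter, so that gene was kept only through the arrays where it was higher. AP-3 carries cargo to lysosomes and related organelles. Of its 5 subunit genes, 4 lay above control in the late window, against 45.4% of all kept genes. Late-window differences were 0.23 for ap3b1a, 0.25 for ap3m2, 0.22 for ap3s1 and -0.25 for ap3m1. A second, dim probe set of ap3b1a read -0.10 in the late window. The subunit gene ap3m2 passed the filter on the late-window array alone, which fixed its late-window direction.

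Sorting nexins and Vps proteins had medians of -0.03 in the late window and -0.00 in the early window (31 of 40 kept). The brightest was snx3, which sorts cargo with retromer, at 10.63 in the late window, 10.67 in the early window and 10.67 in control. Retromer and the nexins that bend its tubules are 9 kept genes. Of these, 7 lay below control in the late window (median -0.10), as did 3000 of all 5492 kept genes, and 3 in the early window (median 0.02), where 0 did on the spike-in scale. Of the 9, 8 were lower in the late than in the early window (median -0.09), as were 2951 of all 5492. Complexes were put together by gene name after the values had been seen.

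Within that set, snx6 read 8.33 in the late window, 8.59 in the early window and 8.70 in control. The retromer subunit gene vps26bl read 7.32, 7.62 and 7.67 in that order, and its relatives vps26a and vps26b differed from control by -0.27 and -0.10 in the late window. For snx1a the late window read 9.64, against 10.02 in the early window and 9.92 in control. Unlike these genes, snx5, a partner of Snx1 in mammals, lay above control in the late window. It read 7.65 in the late window and 7.74 in the early window, against 7.40 in control. The core subunits vps35 and vps29 hardly differed, with -0.07 and 0.05 in the late window and 0.02 and 0.02 in the early window.

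**Figure D3:**
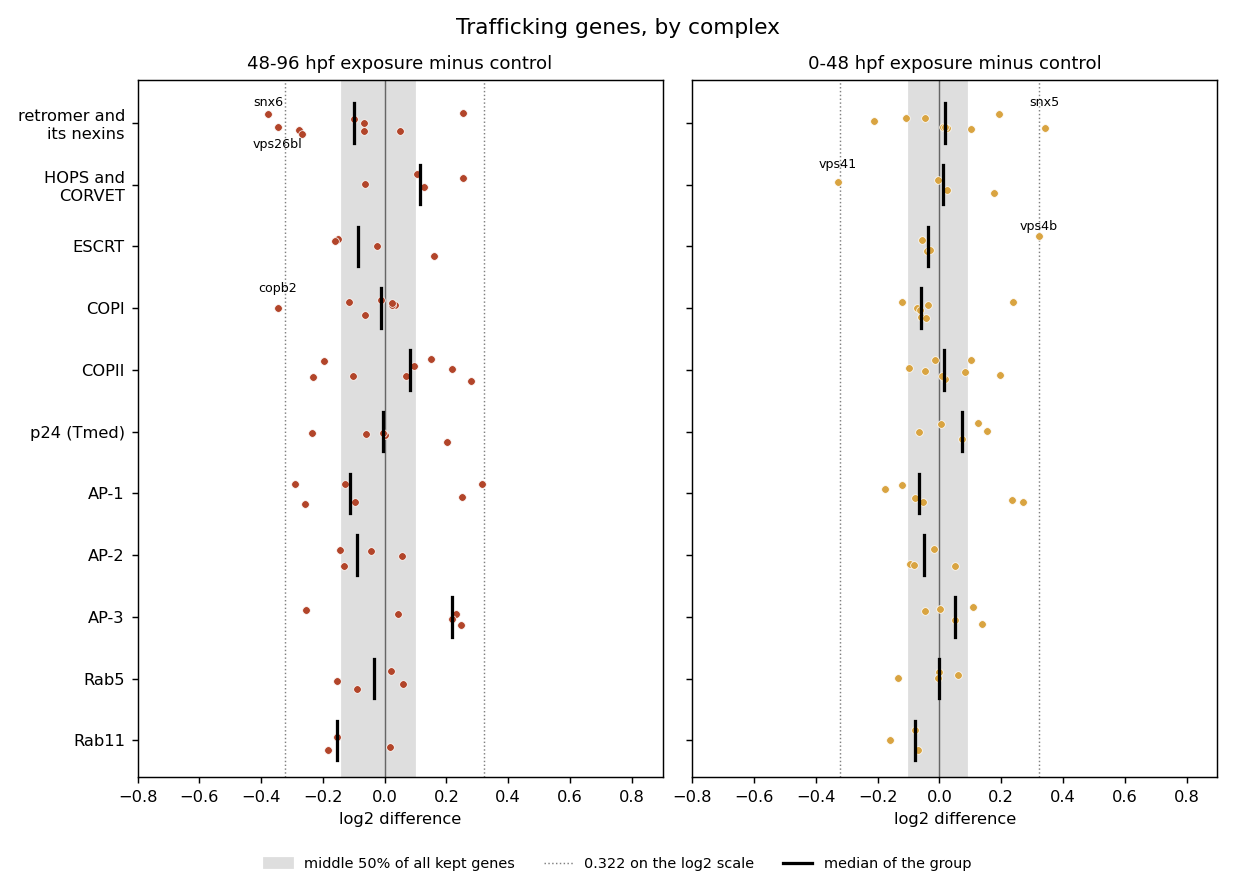
Log2 difference from control (horizontal axis) of kept trafficking genes grouped by complex, for the late window (left) and the early window (right), with group medians as bars, the central quartiles of all kept genes in grey and a difference of 0.322 as dotted lines. In the late window 7 of 9 retromer and nexin genes lie left of 0, as do 3000 of all 5492 kept genes. In the same window 4 of 5 AP-3 genes lie right of 0, against 45.4% of all kept genes. On the spike-in scale all early-window points would move right by 0.50.

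For HOPS and CORVET, which fuse endosomes with each other and with lysosomes, 4 of 6 genes were kept. Their late-window differences from control were 0.25 for vps16, 0.10 for vps18, 0.13 for vps8 and -0.06 for vps41. All 4 were higher in the late than in the early window on the deposited scale, as were 2541 of all 5492 kept genes. That direction turned for each of the 4 on the spike-in scale. The HOPS subunit vps41 read 7.71 in the late window and 7.44 in the early window, against 7.77 in control, and its early-window difference of -0.33 became 0.17 on the spike-in scale. The ESCRT ATPase gene vps4b read 9.17 in the late window and 9.33 in the early window, against 9.01 in control. The 3 other kept ESCRT genes lay between -0.16 and -0.02 in the late window.

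The cathepsins and legumain, proteases of the lysosome, had the highest median of the roles with more than 1 kept gene. Of 12 kept genes, 10 lay above control in the late window (median 0.18), against 45.4% of all kept genes, and 8 in the early window (median 0.10), against 49.6%. On the spike-in scale the early-window count was 12 and the median 0.60. Cathepsin S degrades proteins in antigen-presenting cells of mammals. The transcript of ctss2.1 read 7.56 in the late window and 7.57 in the early window, against 6.86 in control, which made it 1.62-fold higher in the late window and 1.63-fold higher in the early window. The exposed arrays differed by 0.01 while the control array stood apart below the filter, so this gene was kept only through the arrays where it was high and had to differ. On the spike-in scale its early-window difference was 1.21.

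The relative ctss2.2 read 7.74 in the late window and 7.53 in the early window, against 7.41 in control. Its differences of 0.33 and 0.12 were matched by its second probe set with 0.34 and 0.12. The genes ctsk, ctss2.1 and ctss2.2 are neighbours among the protein-coding genes of chromosome 16 in the RefSeq annotation of GRCz12tu. Among 118 other genes at least 0.322 from control in both windows, the patterns nearest to that of ctss2.1, by Euclidean distance of both differences, were those of npm1b (0.04), slc43a2b (0.08) and crtac1a (0.13). Like ctss2.1, npm1b and crtac1a lay below the filter on the control array alone, so they had to lie above control in both windows. The differences of npm1b, a nucleophosmin gene, were 0.67 in the late window and 0.71 in the early window.

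The cathepsin L gene ctsl.1 and legumain went opposite ways in the windows. The transcript of ctsl.1 read 10.29 in the late window and 9.58 in the early window, against 9.98 in control, so that it was 0.31 above control in the late window and -0.40 in the early window. A second bright probe set read 0.57 and -0.52. Legumain (lgmn), the asparaginyl endopeptidase that processes other cathepsins, read 10.22 in the late window and 9.72 in the early window, against 10.13 in control. Both early-window differences turned positive on the spike-in scale, to 0.10 for ctsl.1 and 0.09 for lgmn.

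The opposite pattern held for ctsk and ctsc. Cathepsin K, a collagen-degrading enzyme of mammalian osteoclasts, read 8.09 in the late window and 8.49 in the early window, against 8.25 in control. Cathepsin C, which activates the serine proteases of mammalian neutrophils, read 7.12 in the late window and 7.52 in the early window, against 7.32 in control. Only its late-window value lay below the filter, which fixed its late-window direction against both other arrays. The genes ctsk and ctsc were the 2 kept cathepsins below control in the late window. The brightest cathepsin, ctsla, read 12.65 and 12.74 in the late and early windows, against 12.44 in control. The broadly expressed ctsd (0.19 and 0.16), ctsz (0.23 and 0.07), ctsba (0.17 and 0.03), ctsa (0.17 and -0.08) and ctsf (0.11 and -0.06) completed the group and were named to account for all its kept members.

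**Figure D4:**
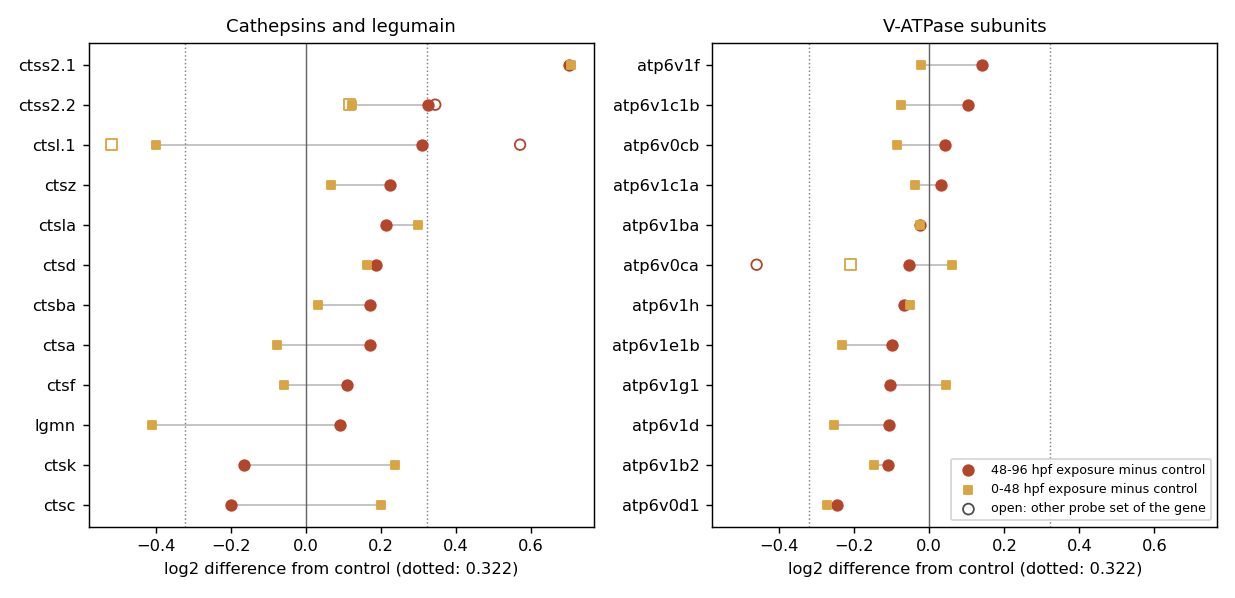
Log2 difference from control (horizontal axis) of the kept cathepsins and legumain (left) and V-ATPase subunits (right), with circles for the late window, squares for the early window and open symbols for a second bright probe set. The ctss2.1 symbols coincide near 0.70, ctsl.1 and lgmn lie on opposite sides of control, and the V-ATPase subunits stay between -0.27 and 0.14 in their main probe sets; on the spike-in scale every square would move right by 0.50.

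Markers of cells rich in lysosomes differed among themselves. Of 18 macrophage and microglia markers, 10 had a single symbol and 3 passed the filter: lcp1 differed by -0.19 in the late window and 0.48 in the early window, coro1a by 0.09 and 0.42, and apoeb by 0.43 and 0.15. Their summed linear signal was 7996, 6718 and 6004 in the late window, the early window and control, nearly all of it apoeb, and without apoeb it was 289, 408 and 299, while the defining marco, csf1ra and spi1b were below the filter. Of 8 neutrophil markers 3 passed, with mpx at 0.26 and 0.48, lyz at -0.32 and 0.32 and nccrp1 at -0.08 and 0.08. Their summed signal was 1191, 1515 and 1298, and 562, 813 and 634 without nccrp1, the brightest of them. Of these 6 markers, all but apoeb were lower in the late than in the early window, as were ctsk, ctsc and 2951 of all 5492 kept genes. For lcp1 and ctsc only the late-window array lay below the filter, which fixed that direction. For coro1a and mpx only control lay below it, so both had to lie above control. On the spike-in scale every kept member but ctsl.1 was lower in the late than in the early window. Among markers below the filter, csf1ra (0.03), spi1b (0.06), ptprc (0.09), cd74a (0.08) and cd74b (0.03) were higher in the late window. Lower were marco (-0.09), slc7a7 (-0.15), srgn (-0.14) and ncf1 (-0.10). The part of macrophages and neutrophils in the cathepsin values was not tested.

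For the lysosome-rich enterocytes of the mid intestine and their ileal neighbours, 3 of 7 markers had a single symbol and passed. The bile acid-binding fabp6 differed by 0.84 in the late window and 0.14 in the early window, the bile acid transporter slc10a2 by 0.68 and -0.21, and the endocytic adaptor dab2 by 0.05 and -0.01. Their summed signal was 4308, 2774 and 2606 in the late window, the early window and control, and 817, 620 and 655 without fabp6. Their part in the values of ctsl.1 and lgmn was not tested. No marker of the hatching gland had a single symbol, none of the V-ATPase-rich ionocyte markers passed the filter, and of the osteoclast markers only ctsk did.

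The V-ATPase, the proton pump that acidifies lysosomes, had an SD across its subunit genes of 0.11 in the late window and 0.11 in the early window. Across the Rab genes the SD was 0.13 and 0.09, and across all kept genes 0.23 and 0.17. All 12 V-ATPase subunit genes passed the filter. Of these, 8 lay below control in the late window (median -0.06), as did 3000 of all 5492 kept genes. In the early window 10 subunit genes lay below control (median -0.06, but 0.44 on the spike-in scale), as did 2766 of all 5492. The brightest, atp6v0cb of the membrane ring, read 11.89, 11.76 and 11.85 in the late window, the early window and control. The subunit furthest from control was atp6v0d1, which joins ring and stalk, at 10.33 and 10.30 in the late and early windows, against 10.57 in control. The stalk subunits atp6v1d and atp6v1e1b read 9.83 and 9.68 for atp6v1d, against 9.94 in control, and 11.38 and 11.25 for atp6v1e1b, against 11.48 in control. For atp6v0ca a second bright probe set read -0.46 in the late window and -0.21 in the early window, where the brighter one read -0.05 and 0.06.

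Prosaposin (psap), the precursor of the saposins that help hydrolases reach their lipids, read 11.02 in the late window and 11.04 in the early window, against 10.85 in control. Among membrane and lipid transport proteins, 7 of 9 passed the filter, with medians of 0.00 in the late window and 0.05 in the early window. The membrane glycoprotein gene lamp1b read 8.33 in the late window and 8.54 in the early window, against 8.76 in control, and was 1.35-fold lower in the late window. Its paralogue lamp1a went the other way, with differences of 0.18 and 0.11. The cholesterol exporter npc1 read 8.11 in the late window and 8.29 in the early window, against 7.95 in control, while its soluble partner npc2.1 read 9.32, 9.53 and 9.53. The dim cln3, the gene of a human childhood neuronal ceroid lipofuscinosis, stayed below the filter, with values of 6.46 and 6.56 in the late and early windows, against 6.12 in control.

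Between the exposure windows, 4 of the 147 members (2.72%) were higher in the late than in the early window by at least 0.322, against 4.15% of all kept genes, and 4 (2.72%) were lower, against 3.93%. At 1.5-fold in either direction 1 member was left, against 1.75% of all kept genes. It was ctsl.1, which was 1.63-fold higher in the late window (0.71), and 1.09 on the log2 scale by its second probe set. After it came lgmn (0.50), arl3l2 (0.37) and sec24a (0.33), and at the low end rab13 (-0.49), ctsk (-0.40), ctsc (-0.40) and snx1a (-0.38). Of the 32 kept lysosome genes 2 (6.25%) were higher and 2 (6.25%) lower, all of them cathepsins or legumain. Of the 106 kept trafficking genes 2 (1.89%) were higher and 2 (1.89%) lower. The direction of ctsc between the windows was fixed by the filter. On the spike-in scale ctsl.1 was the only kept member that remained higher in the late than in the early window (0.20).

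**Figure D5:**
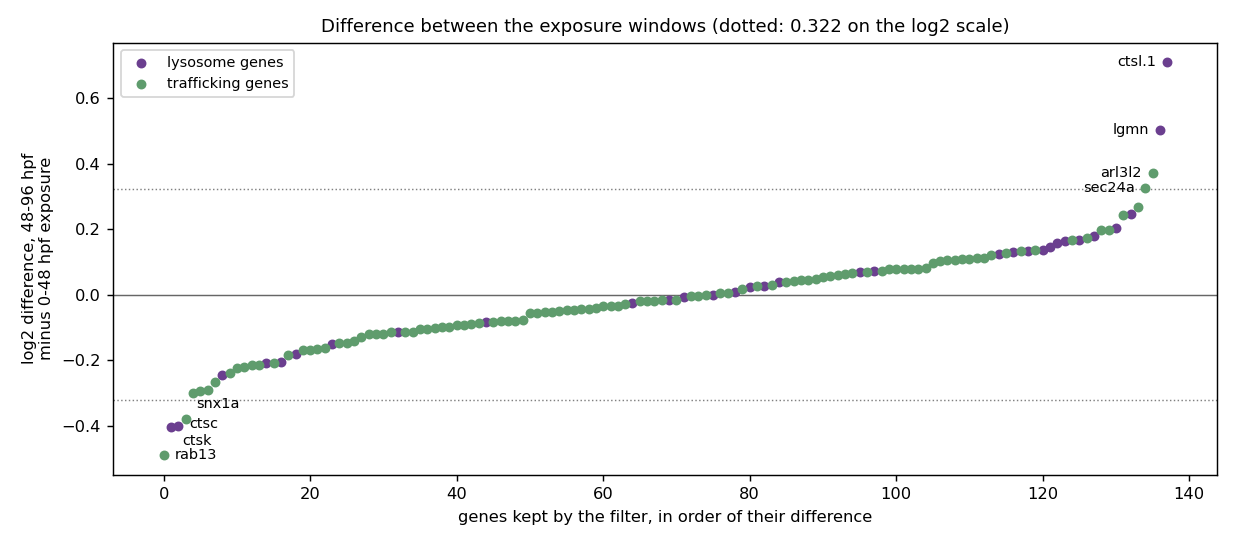
Log2 difference between the late and the early window (vertical axis) of the 138 kept trafficking and lysosome genes in order of that difference, with lysosome genes in purple, trafficking genes in green and a difference of 0.322 as dotted lines. The 2 highest genes, ctsl.1 and lgmn, are lysosome genes; on the spike-in scale every point would move down by 0.51, leaving ctsl.1 as the only one above 0.

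Genes of the same pathways that the symbol pattern does not cover also had medians near 0. Of 55 further lysosome genes listed (hydrolases, transporters, regulators), 29 had a single symbol and 20 passed the filter. Their medians were 0.06 in the late window and 0.00 in the early window. In the late window 0 of them were higher by at least 0.322 and 2 were lower, against 4.90% and 5.61% of all kept genes. The lower ones were atp6ap2, an accessory protein of the V-ATPase (-0.55), and lyz, a lysozyme (-0.32). In the early window 0 were higher, with lyz just inside the limit (0.3215), and 1 was lower, laptm4b, a lysosomal membrane protein (-0.35), against 2.02% and 3.55%. Between the windows the sialic acid exporter slc17a5 was higher in the late window (0.40), and lyz (-0.65) and atp6ap2 (-0.47) were lower, against 4.15% and 3.93% of all kept genes.

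Of 118 further trafficking genes, 68 had a single symbol and 54 passed the filter. These include ssr1, ssr2, ssr3, ssr4 and srp54, whose products serve the translocon, like the sec61 genes counted above as other functions. The medians of the 54 genes were -0.04 in the late window and -0.02 in the early window. In the late window 1 was higher, gdi2, which extracts Rab proteins from membranes (0.35), and 1 was lower, ykt6, a SNARE of Golgi and autophagosome traffic (-0.42), against the same 4.90% and 5.61%. The late-window value of ykt6 lay below the filter and its control value above it, which fixed its direction. In the early window none differed by 0.322 or more in either direction, against 2.02% higher and 3.55% lower among all kept genes. Between the windows only hgs, an ESCRT subunit, was higher in the late window (0.34) and none was lower, against 4.15% and 3.93% of all kept genes.

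The 41 members below the filter had values between 3.14 and 7.15, so their differences are those of dim signals. They were 14 Rab genes, 9 sorting nexins and Vps genes, 4 tethers and golgins, 3 adaptor subunits, 3 Arf and Arl genes, 2 Sec genes, 2 cathepsins, 2 Cln genes and 2 genes of other functions. Both dim cathepsins, ctss1 (-0.03 and -0.11) and ctsll (-0.05 and -0.05), lay near control in the late and early windows. The dim member furthest below control was arl2bp, a gene of other functions, at -0.49 in the late window and -0.34 in the early window. Between the windows snx18a had the largest difference among the dim members (0.52). Of the 147 kept members, 139 were above the filter on every array. For each of the other 8, the filter fixed the direction between an array below it and an array above it, but not between arrays on the same side. Control alone was below it for 3 (ap1m2, ctss2.1 and sec23ip), which had to lie above control. The exposed arrays were both below it for arl4cb and vps52, which had to lie below control. Only the late-window array passed for ap3m2, only the late-window array failed for ctsc, and only the early-window array failed for snx27b.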

How the data were processed

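RNA of whole larvae was measured on 3 Affymetrix arrays, 1 per group, and the number of arrays limits the precision. Per the submitters' processing notes, the authors used RMA (background correction, quantile normalization and probe summary) to make the deposited log2 values of 15617 probe sets. The sources used here do not name the RMA software. RMA equalises the arrays, so a shift shared by all genes of an array cannot be seen. No further normalization was applied.

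Probe sets were named by the platform annotation of 2016: 10802 had 1 symbol, 135 several and 4680 none, and only the first were used. All 188 members matched a RefSeq gene with the same symbol by Entrez ID. They have 220 probe sets, and 26 genes have several; the probe set with the highest mean stands for the gene. Log2 differences between arrays were computed in Python 3.11.15 with pandas 2.3.3 and numpy 2.4.6, loess with statsmodels 0.14.6 and figures with matplotlib 3.10.9. The counting and the medians were tested on simulated data.

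The members, roles and lists were chosen with earlier results of these data known, and the percentages of all kept genes beside the counts are a background and no test. Genes named by rule were, for each role, the 3 members furthest from control and the brightest, those past 1.5-fold, the 5 highest and 5 lowest between the windows, ctss2.1 and its 3 nearest patterns. The genes vps4b and ctss2.2 and others marked in the text were named after their values were seen. Alternatives concerned the scale (median centring, quantile normalization again, loess with span 0.3, spike-ins), the filter (none, or 8.48, the 75th percentile), the probe sets (their mean, or without those marked as cross-hybridising), the fold and the member lists. No sequences are shown.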

Additional observations from a re-analysis of the deposited data

Results flagged for a closer look

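For 7 members the exposed arrays lay on opposite sides of control and differed from each other by at least 0.322. With 1 array per group these differences were not tested. The share of all kept genes that met both conditions was not computed, so the count of 7 has no background beside it. The late minus early differences were 0.71 for ctsl.1, 0.50 for lgmn and 0.33 for sec24a, which were above control in the late window and below it in the early window. They were -0.49 for rab13, -0.40 for ctsk, -0.40 for ctsc and -0.38 for snx1a, which were below control in the late window and above it in the early window. For ctsc the filter fixed the late-window direction against both other arrays. On the spike-in scale all 7 lay above control in the early window.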

How the results depend on the processing

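The scale of the early-window array mattered most. With spike-in scaling 133 members were higher and 0 lower than control in the early window, 0 were higher and 137 lower in the late than in the early window, and 1 was higher in the late window. The trafficking and lysosome medians became 0.49 and 0.49 in the early window and -0.54 and -0.48 between the windows. On that scale every kept member but arl3l1 lay above control in the early window, so every negative early-window median and nearly every negative difference turned. Among medians of at least 0.05 in size these were the Arf (0.43) and V-ATPase (0.44) medians in the early window and the Arf (-0.38), cathepsin (-0.36) and V-ATPase (-0.46) medians between the windows. Among differences past the limit they were arl3l2 (0.088), ctsl.1 (0.10), lgmn (0.090) and vps41 (0.17) in the early window, and arl3l2 (-0.14), lgmn (-0.0081) and sec24a (-0.18) between the windows. In the late window, median centring left 1 member higher than control, and quantile normalization and loess gave 4 each. With the filter at the 75th percentile, 0 members were higher and 4 lower in the late window, 1 higher and 2 lower in the early window, and 2 lower between the windows; the early-window Arf median became 0.052. Without a filter the late-window tether median became 0.011 and the nexin and Vps median between the windows 0.0048. At 1.5-fold, 1 member was higher and 0 lower in the late window, 1 and 1 in the early window, and 1 and 0 between the windows. At 2-fold there were 0 in each. Without V-ATPase subunits the lysosome median was 0.16 in the late window and 0.062 in the early window, and without cathepsins the late-window median was -0.039. The mean over probe sets and the removal of cross-hybridising probe sets turned copb2 in the late window, to 0.018 and 0.023. The causes of these changes were not tested beyond what each setting does by construction. The main results recomputed were the counts of members and the trafficking and lysosome medians with their gap. Of these 150 values, 118 stayed within 1.5 times the count or within 0.05 of the median. A further 942 values, role medians and differences of single genes, were recomputed apart from these. Of them 821 were rated as unchanged, 104 as moved and 17 as reversed. No paired analysis was possible because each group has 1 array. Dim genes sit near background, where differences are compressed.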
